A study of Mus musculus with 4 samples.

Results

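The genes 4933427E13Rik, Sh3pxd2a and Paox lie nearest to the 3 Smad1 sites with the highest DMSO score among sites that no IWR-1 peak overlapped. They are 3 of the 55450 genes of GENCODE M21. Their sites are 3 of the 5815 common DMSO sites without a call in either IWR-1 list, out of 10466 common DMSO sites in all. A common site is one in the authors' own list of DMSO peaks shared by both peak callers. The 3 sites were selected on the MACS score with DMSO and on the lack of an IWR-1 call, so both are given here only as a description. The score rises as the p-value of a peak falls, it starts at 50 in these lists, and it ranks peaks within its own list only. The third site had a score of 196.81, and the next site in this ranking, which belongs to none of the 3 genes, had 192.57. Peaks of all 5 lists were read within 50 kb of the bodies of Sh3pxd2a and Paox and within 150 kb of 4933427E13Rik.

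Chromatin came from EBs of the mouse GFP-Bry ES line, in which GFP is knocked into the Brachyury locus. Its strain is given as C57BL/6 in the labels. The EBs were dissociated on day 3, left to reaggregate for 24 h with DMSO as vehicle or with 10 µM IWR-1, and collected whole on day 4. For each treatment an anti-Smad1 ChIP and an input were sequenced as 1 library each, which leaves every difference between treatments without a replicate check, and no test was made. The depth behind a single peak is unknown, because the lists give positions and MACS scores and no reads. The DMSO lists of both callers were recognised by their coordinates, as the source of the common sites, because GEO attaches them to input samples. The QESEQ list for IWR-1 is filed with the IWR-1 ChIP, whereas the second MACS list is filed with the DMSO ChIP and could be placed with IWR-1 only by elimination. Every absence or presence of an IWR-1 call that rests on the second MACS list depends on that placement, and calls of the QESEQ list are therefore given separately.

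Smad1 is a transcription factor that BMP receptors phosphorylate, after which it enters the nucleus with Smad4 and binds GC-rich elements and short Smad boxes. IWR-1 stabilises Axin and so lowers β-catenin and canonical Wnt signalling. Sh3pxd2a encodes Tks5, a scaffold protein with a PX domain and several SH3 domains that Src phosphorylates and that podosomes and invadopodia need. Paox encodes the peroxisomal oxidase that turns acetylated spermine and spermidine back into shorter polyamines, and 4933427E13Rik is annotated as a long intergenic noncoding RNA of no described function.

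The sequences under the 3 sites are shown because each carries a different feature, a tandem array, an intronic GC-rich stretch and a promoter. The first is the whole common site upstream of 4933427E13Rik, at chr11:25100071-25100284, with each ATTCC in capitals. The second is the 300 bases of the Sh3pxd2a site that held most of the short sequences searched for, at chr19:47428170-47428469, with the GC-rich Smad element GGAGCC, the Smad box CAGACA and the GATA factor element AGATAA in capitals. The third is the stretch of the Paox site that ends at the base before the annotated start of the main transcript, at chr7:140125407-140125656, with GGAGCC and CCGCCC in capitals. All are given on the forward strand of GRCm38, the assembly behind mm10, and the Paox stretch is part of the promoter that RefSeq lists for the gene on GRCm38.p6.
4933427E13Rik site: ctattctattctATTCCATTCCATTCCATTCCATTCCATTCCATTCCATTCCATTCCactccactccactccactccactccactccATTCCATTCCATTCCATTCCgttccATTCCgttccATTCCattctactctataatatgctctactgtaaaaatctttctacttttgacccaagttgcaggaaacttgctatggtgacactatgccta
Sh3pxd2a site: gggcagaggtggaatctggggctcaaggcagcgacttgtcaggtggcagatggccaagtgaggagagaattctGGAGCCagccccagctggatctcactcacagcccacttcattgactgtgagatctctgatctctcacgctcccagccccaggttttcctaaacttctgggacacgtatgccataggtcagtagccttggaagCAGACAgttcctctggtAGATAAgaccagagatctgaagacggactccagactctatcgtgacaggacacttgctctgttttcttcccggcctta
Paox site: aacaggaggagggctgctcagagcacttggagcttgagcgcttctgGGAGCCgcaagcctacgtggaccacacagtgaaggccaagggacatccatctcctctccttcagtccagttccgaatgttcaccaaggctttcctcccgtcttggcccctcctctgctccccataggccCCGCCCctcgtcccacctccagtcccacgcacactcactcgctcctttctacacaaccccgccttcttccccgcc

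The site assigned to 4933427E13Rik was a tandem array of 5-base units in intergenic DNA. The gene spans chr11:25232626-25367137 on the forward strand, and its main transcript starts 97.3 kb downstream of the gene start. The centre of the site lay 132 kb upstream of the gene start and 669 kb from the nearest coding start. The array ran from position 25100022 to 25100203, 182 bp in all, and 95.5% of its bases matched the base 5 positions before them. It held 13 copies of ATTCT, 15 of ATTCC and 6 of ACTCC, and all copies of the last 2 units lay in the common site. The array made up 133 of the 214 bp of the common site, and the other 81 bp lay to its right. The MACS peak was 320 bp wide and covered the whole array, and NCBI's mask covered 50.9% of the common site, against a median of 38.2% over all common sites.

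Matching at a distance of 5 bases set this site apart from nearly every other one. Of its bases, 67.9% matched the base 5 positions before, which was more than in 99.97% of the common sites, whose median was 31.2%. Its GC content of 41.1% was close to the median of 41.5%, it held 2 CpG, and no A or T was repeated more than 5 times in a row. It held 14 copies of CATTCC, the core that TEAD factors bind, a number reached by 4 of the 10466 common sites, this one included, while 19.2% of them held at least 1. The letters CATTCC were looked up after the site had been seen, the copies come with the array, and a match does not show binding.

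Arrays of this unit were rare in the assembly. Stretches of at least 100 bp with 90% or more matches at a distance of 5 bases, long single-base runs left out, numbered 9229 over the assembled chromosomes, and ATTCC was the leading unit in 5 of them. All 5 overlapped a DMSO peak of both callers, whereas 113 of all 9229 arrays, or 1.22%, overlapped a DMSO peak of either caller. The choice of sites fixed this only for the array near 4933427E13Rik, and the other 4 were looked up after it had been seen. Their DMSO MACS scores were 1553.19 at chr17:4626163-4626604, 442.35 at chr6:132463665-132463814, 161.78 at chr9:62608569-62608683 and 135.28 at chr10:83954541-83954690. The arrays on chromosomes 17 and 6 had a peak of the second MACS list, with scores of 125.16 and 80.34, and the one on chromosome 17 also had a peak of the IWR-1 QESEQ list. The arrays on chromosomes 9 and 10 had neither, so 2 of the 4 were without an IWR-1 call. Only 3 of the 5 arrays, those near 4933427E13Rik and on chromosomes 17 and 9, overlapped a common site, and 2 of these 3 had no IWR-1 call. The arrays on chromosomes 6 and 10 overlapped a DMSO peak of each caller but no site of the authors' common list. Over arrays of any unit that overlapped a common site, 18 of 26 had none, beside 55.6% of all common sites. Both counts of arrays include the chosen one, where the rule fixed the lack of a call.

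Part of the sequence near 4933427E13Rik is found elsewhere in the genome too. Of the 164 words of 51 bases in the common site, the tag length given to MACS, 83.5% occurred once in the assembled chromosomes, and no word had more than 4 copies. Over the wider MACS peak 71.5% of words were single, and one word had 487 copies. A smaller share than 83.5% was found in 17.0% of common sites, whose median was 100%. With words of 36 bases the single-copy share fell to 60.3%. Each word of the Sh3pxd2a and Paox sites, at 51 and at 36 bases, occurred once. The part of repeated words in the score near 4933427E13Rik was not tested.

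The strongest site in Sh3pxd2a lay in its first intron and was the widest of the 3. Sh3pxd2a spans 204 kb at chr19:47260174-47464401 on the reverse strand, and the 754-bp common site at chr19:47427809-47428562 was centred 36.2 kb downstream of its start. The nearest GENCODE M21 start, that of a shorter Sh3pxd2a transcript, lay 17.8 kb from the centre. RefSeq also lists a long noncoding RNA on the other strand, Gm36885, that starts inside the site at position 47427934, and 175 of the 300 bp of its listed promoter were shared with the site. The site had a GC content of 55.04%, higher than in 96.8% of common sites, and 13 CpG, or 1.72 per 100 bp. Only 3.45% of its length was masked, and 2.07% of common sites had less. Runs of A or T ended at 5 bases.

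The site in Sh3pxd2a held 4 matches to the 8 short sequences that were searched for on both strands. GGAGCC, a GC-rich Smad element, occurred at -145 and 60 bp from the centre, and 29.3% of the 1302 common sites of similar width held at least 1. CAGACA, a Smad box, occurred at 192 bp and is present in 48.4% of those sites. AGATAA, which GATA factors bind, occurred at 209 bp and is present in 28.6% of them. No match was found to GGCGCC, to the Smad palindrome GTCTAGAC, to the TCF/LEF sequences CTTTGAT and CTTTGTT or to the AP-1 sequence TGACTCA. A second CAGACA, at 425 bp, lay beyond the common site in the last bases of the MACS peak. Windows of the same width 2 kb to the left and to the right held 1 and 3 matches.

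The site at Paox covered the start of the gene's main transcript. Paox spans chr7:140115799-140137224 on the forward strand because some transcripts begin 9.86 kb upstream of the main one. The main transcript, Paox-201, starts at position 140125657, inside the 392-bp common site at chr7:140125279-140125670, whose centre lay 183 bp before that start. The site and the MACS peak, 443 bp wide, had the same left end. The site thus took in the proximal promoter and the first bases of exon 1. It was the only one of the 6 common sites in the 3 windows that touched an annotated GENCODE start.

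The sequence at the Paox start was GC-rich and unmasked. Its GC content of 58.4% was higher than in 97.9% of common sites, and its 14 CpG, or 3.57 per 100 bp, gave a density above that of 95.6% of them. The observed number of CpG was 0.451 of that expected from the C and G content, where the median common site had 0.196. No base was masked, as in 1.61% of common sites, and no run of A or T exceeded 3 bases. A run shorter than 3 bases occurred in 0.0382% of common sites. In windows of 50 bp its GC content was 50% at 200 bp to the left of the centre and 78% at 200 bp to the right, close to the start. A window as wide as the site had 45.4% GC when placed 2 kb upstream and 52.8% when placed 2 kb downstream.

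Of the 8 sequences searched, the Paox site held GGAGCC, at -19 bp from its centre, which 14.7% of 5476 common sites of similar width and 30.8% of the 32851 RefSeq promoters also hold. GGCGCC, the palindromic Smad element, lay at 214 bp, beyond the common site but inside the MACS peak and exon 1, and is present in 11.9% of RefSeq promoters. The GC box CCGCCC, looked up after the sequence had been seen, occurred 2 times in the site, once in the printed stretch and once in exon 1, and 35.7% of RefSeq promoters and 6.92% of common sites hold it. Neither TCF/LEF sequence nor AGATAA was found in the site.

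**Figure D1:**
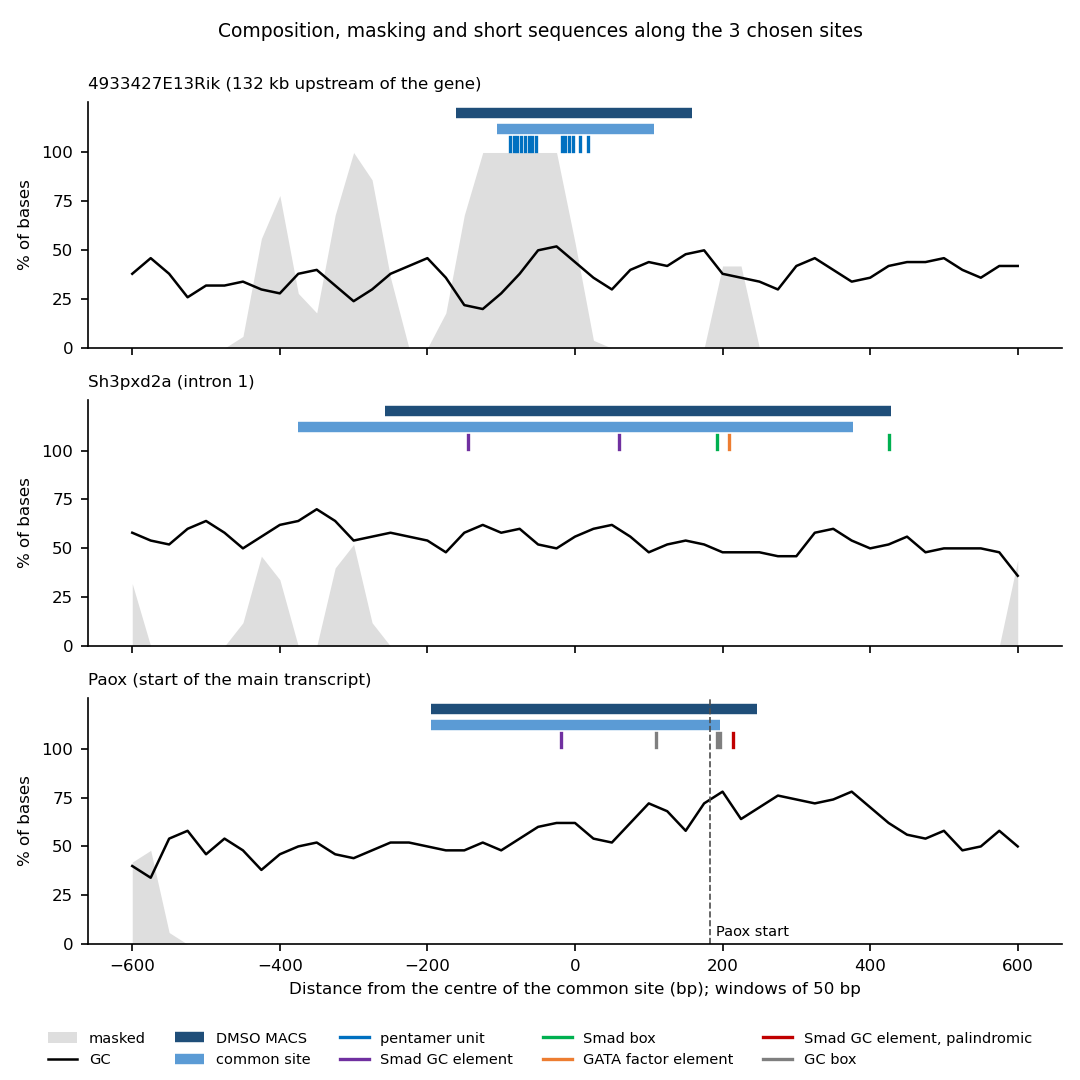
GC content (black line) and masked bases (grey), both as percent of bases in windows of 50 bp, along the 3 chosen sites, with distance from the centre of the common site in bp on the horizontal axis. Bars above give the DMSO MACS peak and the common site, and ticks give short sequences: the pentamer unit is CATTCC, the GC box CCGCCC, the Smad GC element GGAGCC, its palindromic form GGCGCC, the Smad box CAGACA and the GATA factor element AGATAA. The mask lies on the array near 4933427E13Rik, and GC content at Paox is highest near and beyond the dashed start of Paox-201.

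All 3 chosen sites lacked the long runs of A or T that most Smad1 sites of this data set hold. A run of at least 7 A on either strand was present in 90.3% of common sites and in 29.8% of windows of the same widths 2 kb to either side, and the median of the longest run was 25 bases. The longest runs in the chosen sites were 5, 5 and 3 bases. Among the other 203 sites without an IWR-1 call in the top 10% of scores, the median was 26 bases, and 9.36% of them had a longest run shorter than 5. Among common sites with a score of at least 100, the chosen ones left out, 267 of 315 without a run of 7 had an IWR-1 QESEQ call (84.8%, 80.3 to 88.5%), against 332 of 630 with a run of 16 or more (52.7%, 48.7 to 56.7%). With tRNA genes left out, these shares were 77.9% of 217 and 50.3% of 597, and with a call in either list 83.9% and 72.0%. Over all scores they were closer, at 38.1% of 911 and 36.3% of 8432 with QESEQ and tRNA genes left out. The lack of a call at the chosen sites is what they were chosen for.

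Most common sites with scores like those of the chosen ones had a call with IWR-1. The site near 4933427E13Rik scored 390.23, the Sh3pxd2a site 244.01 and the Paox site 196.81, and 200, 275 and 317 of the 10466 common sites scored higher. Of the 100 common sites next to the first in score, 98 had an IWR-1 QESEQ call (95% exact binomial interval 93.0 to 99.8%), and all 100 had a call in either list. Since the choice used these calls, nothing follows from the contrast beyond how the rule selects. Around the Sh3pxd2a site the numbers were 92 (84.8 to 96.5%) and 99, and around the Paox site 87 (78.8 to 92.9%) and 97. In the bin of 150 to 200, which holds the Paox score near its upper end, the QESEQ share was lower, at 58 of 83 sites (69.9%, 58.8 to 79.5%), the Paox site included. Over all common sites, 37.0% had an IWR-1 QESEQ call, 25.8% a call of the second MACS list, and 55.6% none in either list. Intervals cover counting error over sites only.

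Strong sites were often tRNA genes, and these were called in both treatments. Of the 200 sites that outscored the one near 4933427E13Rik, 150 lay at tRNA genes, and each of the 200 had a call in both IWR-1 lists. Without tRNA genes, 46 of the 48 remaining neighbours in score had a QESEQ call for 4933427E13Rik, 67 of 74 for Sh3pxd2a and 63 of 75 for Paox. Sites of the same kind as each chosen one were compared after the chosen ones had been seen. Of 82 other common sites with a score of at least 100, no run of 7 A or T, no tRNA gene and their centre within 250 bp of a coding start, as at Paox, 71 had a QESEQ call (86.6%, 77.3 to 93.1%). Of 38 such sites inside coding genes and over 5 kb from a coding start, as in Sh3pxd2a, 25 had a QESEQ call (65.8%, 48.6 to 80.4%) and 31 a call in either list. Only 4 other common sites of any score matched at a distance of 5 bases in at least 60% of positions, single-base runs left out, as near 4933427E13Rik. Of these 4, 1 had a QESEQ call (25%, 0.631 to 80.6%). With a score of at least 100, as in the other 2 classes, there was only 1 such site, and it had a call in both IWR-1 lists.

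**Figure D2:**
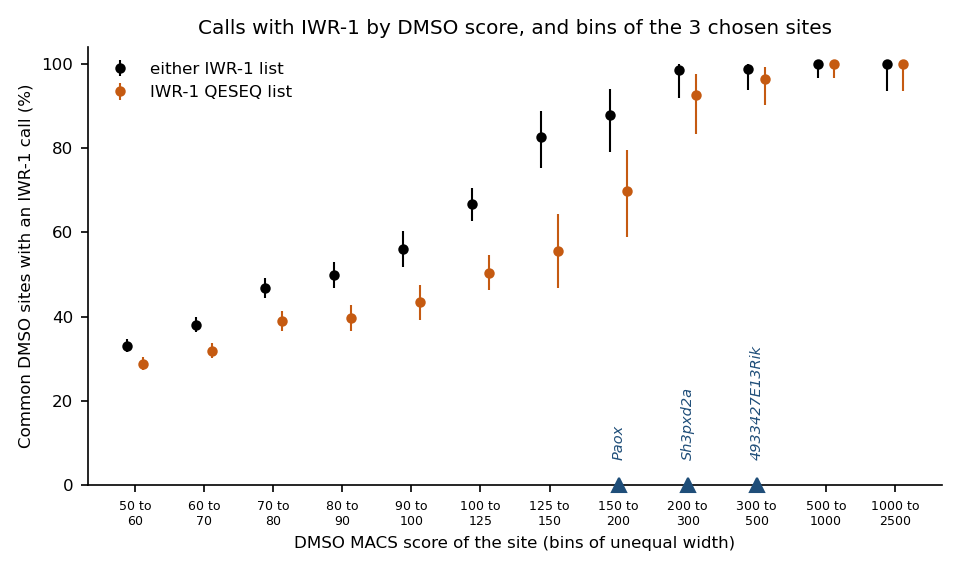
Percent of common DMSO sites with an IWR-1 call (vertical axis) by the DMSO MACS score of the site (horizontal axis, bins of unequal width), for either IWR-1 list (black) and the IWR-1 QESEQ list (orange), with 95% exact binomial intervals over sites. Triangles mark the bins of the 3 chosen sites, where 88.0%, 98.5% and 98.8% of sites had a call in either list. The chosen sites, uncalled by rule, are counted in their bins.

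The gaps from the chosen sites to the nearest IWR-1 peaks are given as a description. They were not compared with those of other sites without a call. The gap to the nearest peak of the IWR-1 QESEQ list was 44.6 kb at 4933427E13Rik, 32.1 kb in Sh3pxd2a and 38.04 kb at Paox. For the second MACS list the gaps were 170 kb, 411 kb and 37.98 kb. The gap to the nearest other common DMSO site was 432 kb for the site near 4933427E13Rik, 32.7 kb for Sh3pxd2a and 37.98 kb for Paox. At Paox the nearest neighbour was the same region for all 3 lists.

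The 3 windows held 29 peaks of the 5 lists, which fell into 13 separate regions, 10 of them apart from the chosen sites. Of these 10, 3 were common DMSO sites, 5 were found with DMSO by 1 caller only, and 2 had a peak with IWR-1 but none with DMSO. Of the 3 neighbouring common sites, 1 overlapped an IWR-1 QESEQ peak, a share of 33.3% with an interval from 0.840 to 90.6% beside 37.0% over all common sites. Of the 5 regions of a single DMSO caller, 1 overlapped an IWR-1 peak, beside 24.9% of all 19623 peaks of a single DMSO caller.

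Both neighbouring common sites in Sh3pxd2a were without an IWR-1 call, like the chosen one. They lay at chr19:47394845-47395155 in intron 3, with a score of 87.43, and at chr19:47361322-47361662 in intron 5, with a score of 74.61, both above the median score of 66.57. A further peak in intron 5, of MACS only, had a score of 53.43 and no IWR-1 call. The exception in this gene was a region in intron 1, 3.19 kb from the annotated start, where QESEQ found a peak of 373 bp with DMSO and one of 1046 bp with IWR-1, and where neither MACS list had a peak. Over all common sites 55.6% had no call in either list.

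At Paox the neighbouring common site kept its call. It lay at chr7:140086833-140087301, 38.4 kb to the left of the chosen site and 4.52 kb upstream of the nearest coding start, that of Caly, which encodes a neuronal vesicle protein. Its DMSO score was 83.84. With IWR-1 it was found by QESEQ and by the second MACS list, there with a score of 71.35, which is above 66.7% of that list. QESEQ alone listed 3 more DMSO peaks in this window, 2 in introns 7 and 6 of Echs1, which encodes a mitochondrial hydratase of fatty acid oxidation and is named after these peaks had been seen, and 1 in intron 6 of Paox. None of these 3 overlapped an IWR-1 peak.

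Around 4933427E13Rik the DMSO and IWR-1 peaks lay in different places. With DMSO the window of 435 kb held only the array. With IWR-1 it held 2 regions without a DMSO peak, one at chr11:25144917-25145518, 87.4 kb upstream of the gene, of QESEQ only, and one at chr11:25270325-25270842 in the first intron of the transcript 4933427E13Rik-204, 37.96 kb from the start of the gene. The second of these was found by QESEQ and by the second MACS list, with a score of 58.79, higher than 38.6% of that list.

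**Figure D3:**
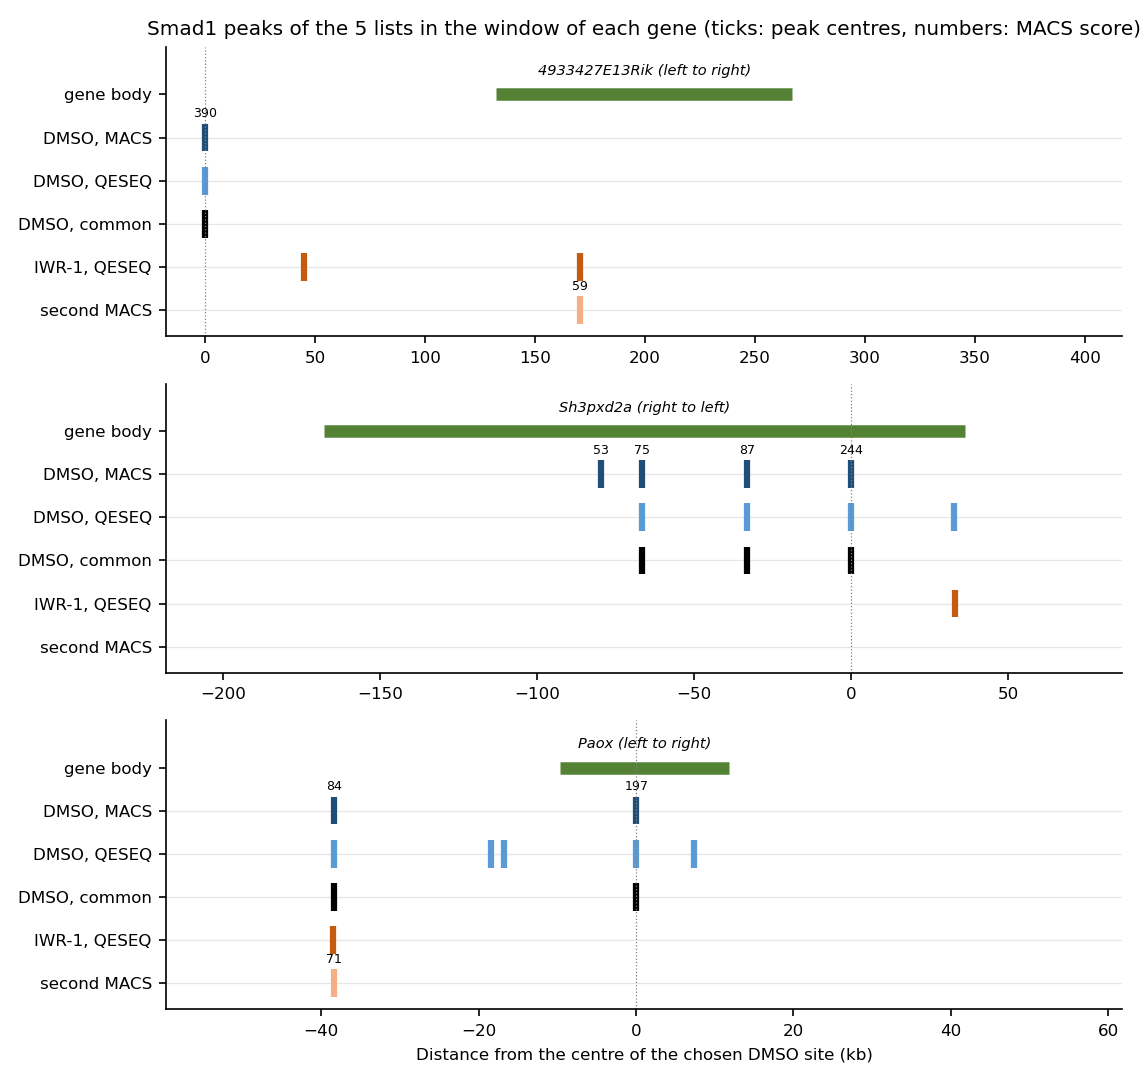
Smad1 peaks of the 5 lists (rows) in the window of each gene, with distance from the centre of the chosen DMSO site in kb on the horizontal axis, which differs in scale between the panels. Ticks mark peak centres, numbers beside them are MACS scores, and green bars are gene bodies with the direction of transcription in brackets. The chosen sites at 0 kb have ticks in the 3 DMSO rows only, and the neighbouring common site at Paox has ticks in all 5 rows.

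Most regions around the chosen sites held a long run of A or T, as most common sites do. Of the 10 other regions, 9 held a run of at least 16 A or T, beside 8466 of all 10466 common sites. The exception was the MACS-only peak in intron 5 of Sh3pxd2a, with 5. All 4 regions with an IWR-1 peak held such a run, of 16 to 33 bases, and so did 5 of the 6 without one, so the run did not separate regions with a call from those without. The sequence around the longest run is shown for the 3 neighbouring common sites and for the 3 other regions with an IWR-1 peak, on the forward strand of GRCm38 with the run in capitals. The first 3 are the neighbouring common sites, at chr7:140086936-140087016, chr19:47395021-47395093 and chr19:47361451-47361532, of which only the first had an IWR-1 call. The others lie at chr19:47460967-47461032, chr11:25145053-25145117 and chr11:25270654-25270717.
Paox neighbour: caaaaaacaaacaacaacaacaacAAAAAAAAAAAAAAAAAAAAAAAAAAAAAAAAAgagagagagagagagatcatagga
Sh3pxd2a intron 3: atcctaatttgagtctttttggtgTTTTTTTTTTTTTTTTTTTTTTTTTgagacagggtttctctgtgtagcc
Sh3pxd2a intron 5: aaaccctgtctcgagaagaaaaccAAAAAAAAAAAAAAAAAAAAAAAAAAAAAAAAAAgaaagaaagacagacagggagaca
Sh3pxd2a intron 1, near the start: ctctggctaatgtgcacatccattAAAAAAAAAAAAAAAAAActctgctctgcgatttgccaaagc
4933427E13Rik upstream: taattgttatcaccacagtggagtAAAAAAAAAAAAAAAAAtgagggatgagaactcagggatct
4933427E13Rik intron 1: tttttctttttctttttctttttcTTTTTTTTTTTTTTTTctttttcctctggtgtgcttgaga

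The 3 neighbouring common sites, of which only the first had an IWR-1 call, were longer in runs than the 3 regions printed after them. They had 33 A, 25 T and 34 A against 18 A, 17 A and 16 T. Their regions were masked over 51.7%, 40.4% and 53.1%, against 8.99%, 7.81% and 16.2%. In the neighbouring common sites 84.8 to 94.2% of 51-base words occurred once, while each such word was single in the other 3 regions. The other 4 regions without an IWR-1 peak were masked over 12.6 to 64.4%, and the chosen regions over 50.3% near 4933427E13Rik, 3.23% in Sh3pxd2a and 0% at Paox. These groups were drawn after the values had been seen.

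**Figure D4:**
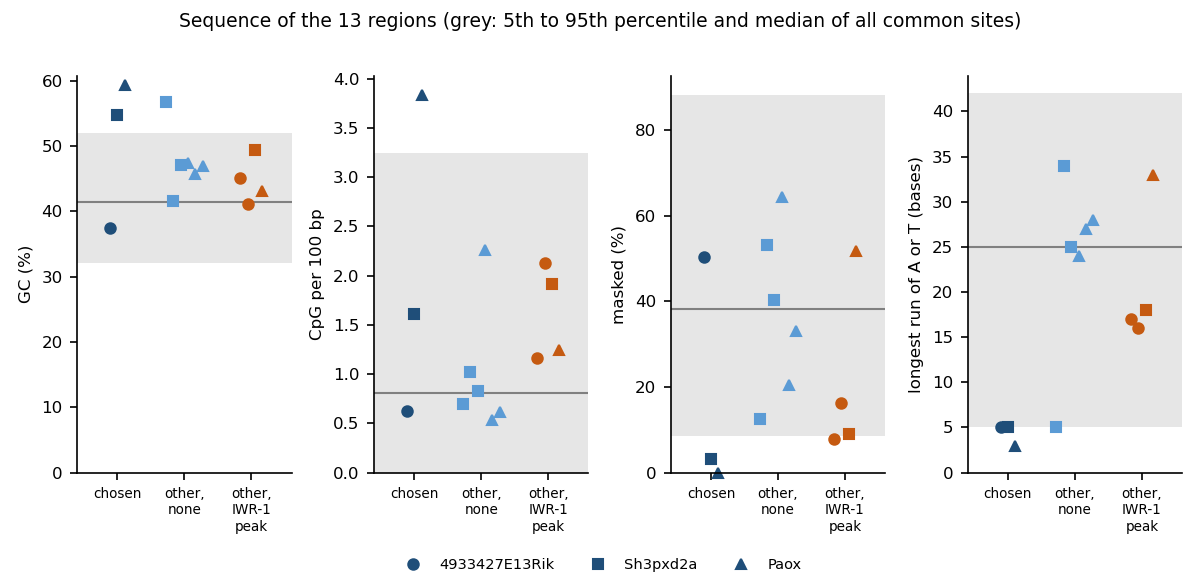
GC content, CpG per 100 bp, masked bases and longest run of A or T (vertical axes) of the 13 regions, grouped as chosen, other without an IWR-1 peak and other with one, with the gene given by the symbol. The grey band spans the 5th to 95th percentile of all common sites and the grey line their median. The 3 chosen regions have the shortest runs, level with 1 other region in Sh3pxd2a.

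The genes that work with Paox and with Tks5 were looked up in the same lists to see how often they lie near Smad1 sites. Among protein-coding genes, 52.1% had a common DMSO site within 50 kb of the gene body. Of 19 polyamine genes, Paox included, 9 had one, or 47.4% (24.4 to 71.1%). Of 19 podosome and invadopodium genes, Sh3pxd2a included, 13 had one, or 68.4% (43.4 to 87.4%), and their median length of 50.6 kb exceeded the 17.4 kb of all coding genes, which widens the search. Each list contains a gene that was chosen for its site.

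In polyamine metabolism, 7 of the 19 genes had a common site in the gene body or within 5 kb, Paox by choice among them, beside 22.8% of all coding genes. Of these genes Paox had the highest score, but it was chosen for that score, so the order says nothing about the list. Arg2, a mitochondrial arginase that supplies ornithine, had a top score of 105.25 among its 2 sites within 50 kb. Sat2, a relative of the spermidine acetyltransferase, had 101.82 among 4 within 50 kb, none of them in the gene body. For both genes the strongest of these sites had no IWR-1 call. Smox, the spermine oxidase, had 3 sites with a top score of 75.91, again without a call at the strongest. At Dhps, which makes the hypusine precursor from spermidine, and at Srm, the spermidine synthase, the strongest sites scored 90.72 and 83.70 and had an IWR-1 QESEQ call. The site in Agmat, the agmatinase, scored 51.88 and had a call of the second MACS list only. Of the 17 sites of the list other than the chosen one, 8 had an IWR-1 QESEQ call and 11 a call in either list, beside 37.0% and 44.4% of all common sites. Odc1 and Amd1, which encode the rate-limiting decarboxylases of the pathway, lay 88.5 and 169 kb from the nearest common site. They are named after their values had been seen.

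In the podosome list, 6 of 19 genes had a common site in the body or within 5 kb, Sh3pxd2a by choice among them, beside the same 22.8%. Of these 6, Actr3 had a higher score than Sh3pxd2a, which was itself chosen for its score. The site of Actr3 lay in the gene, which encodes a subunit of the complex that nucleates branched actin. It scored 315.26 and had an IWR-1 QESEQ call. Sites inside Nck1, an adaptor, and Arpc2, another subunit of that complex, scored 66.40 and 62.30 and also had a call. The sites at Adam12, a metalloprotease, and in Fgd1, an exchange factor for Cdc42, had top scores of 104.33 and 83.94 and no call. Of the 18 sites of the list other than the chosen one, 7 had an IWR-1 QESEQ call and 8 a call in either list, near the 37.0% and 44.4% of all common sites. Sh3pxd2b, the closest relative of Sh3pxd2a, lay 82.2 kb from the nearest common site. Src, Cttn, Wasl, Nck2 and Adam19 had no common site within 50 kb either. All of these are named after their values had been seen.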

How the data were processed

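Reads were aligned by the authors to mm10 with Bowtie2, duplicates were removed, and peaks were called with MACS, at a bandwidth of 300, a tag size of 51, a model fold of 32 and a p-value of 1e-05. The QESEQ caller was run by them at settings of 100 and 15 and a p-value of 0.05. Peak positions were deposited, and for MACS also the score that the authors' caller gave each peak. Which genes, sites and lists are described was chosen with earlier results of these data known. Peaks counted as overlapping from 1 bp. Gene models came from GENCODE M21, and sequence and masking from NCBI's GRCm38. Short sequences were searched on both strands. Words of 51 bases were counted over the assembled chromosomes, unplaced scaffolds left out. Named genes are the 3 members, genes that overlap a common site in their windows or whose coding start is the nearest to one, and genes of both lists with a common site in the body or within 5 kb, plus those said in the text to be named later. The classes of sites, the tandem arrays, CATTCC and CCGCCC were chosen after seeing the data. The overlap, search and word steps were tested on simulated data, where all 24250 word counts were recovered. Intervals are 95% exact binomial (Clopper-Pearson). Python 3.11.15 was used with numpy 2.4.6, scipy 1.17.1, pysam 0.24.0, numba 0.67.0 and matplotlib 3.10.9.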

Additional observations from a re-analysis of the deposited data

How the results depend on the processing

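The chosen sites had no IWR-1 peak within 500 bp or 1 kb either. Of 86 alternatives, 59 kept a value within its counting interval or, for counts, within 1.5 times, and 27 moved it farther. The comparison looked at the size of a shift only, not at a change of direction. No paired analysis was possible because each treatment had 1 library and no result came from a test. With windows of 0.5 times the width around the gene bodies, 0 of 2 neighbouring common sites had an IWR-1 QESEQ call, and with double the width 3 of 7. Of the 100 sites of like score, the second MACS list called 100 for 4933427E13Rik and 93 for Paox. An overlap of at least 50% of each peak lowered the calls to 87, 71 and 67 for 4933427E13Rik, Sh3pxd2a and Paox. A peak of either list, added after seeing the data, raised them to 100, 99 and 97. Of the sites of like score without a run of 7, also taken after seeing the data, QESEQ called 97.1% of 70 for 4933427E13Rik, 93.0% of 71 for Sh3pxd2a and 93.7% of 63 for Paox. With 500 bp added to either side, the masked share was 24.8%, 13.6% and 1.72%, the longest run at Paox 6 bases, and the matches to the 8 short sequences 6, 9 and 4. In Sh3pxd2a the masked share was 0 in the central 200 bp and in the MACS peak, and the central 200 bp held 1 match, while the MACS peak at Paox held 2. At 36 bases, 60.3% of words near 4933427E13Rik were single. With scores of at least 100 only, 3 polyamine and 4 podosome genes of 19 each had a site within 50 kb, beside 8.62% of all coding genes. Paox and Sh3pxd2a are among these genes because they were chosen for their scores, so the counts do not stand as an excess. With the DMSO QESEQ list 16 polyamine genes had one, beside 76.7%, and within 10 kb 7 podosome genes, beside 27.3%.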
